A study of Mus musculus with 9 samples.

Results

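The genes described are 8 genes of radial glia (Pax6, Sox2, Hes1, Hes5, Vim, Nes, Fabp7 and Slc1a3) set against 2 genes of intermediate progenitors (Eomes and Neurog2). They were named for the cells they are known to mark, with earlier results of these data known, and each was found once, as 10 of the 27095 loci in the table. RNA was sequenced from the brains of 9 wild type C57BL/6 (C57BL/6J in the methods) mouse fetuses on gestational day 17, in 3 groups of 3 fetuses. Control dams received an intraperitoneal injection of vehicle on gestational day 7, and the other dams received 2.9 g/kg ethanol (EtOH) by the same route on the same day. EtOH-exposed fetuses were called affected where they showed ocular and craniofacial or cortical patterning defects, and unaffected where these were absent. The tissue is fetal brain in the labels and dissected cortex in the methods. Affected fetuses were sorted after exposure by their defects, so the affected and unaffected groups differ by outcome and not by an assigned treatment.

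Radial glia line the ventricle of the embryonic cortex and are its stem cells. They divide to renew themselves and to give rise to intermediate progenitors, which move to the subventricular zone and divide again to form projection neurons. Notch signalling keeps radial glia undifferentiated: ligands on neighbouring cells activate Notch receptors, the cut receptor joins the DNA-binding protein RBPJ, and Hes1 and Hes5 are switched on. Hes proteins repress proneural genes such as Neurog2, and Eomes (also called Tbr2) appears as a cell becomes an intermediate progenitor. Late in gestation radial glia also begin to form astrocytes, which share several of their genes.

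The deposited table holds 1 FPKM value (fragments per kilobase of exon, scaled for the mapped fragments in each library) per group and locus, the authors' value over the 3 fetuses of the group. There is no value for a single fetus, so the spread between fetuses could not be computed, no test between groups was made, and no difference is set against biological error here. Differences are log2 ratios of group values after adding 0.1 FPKM, a scale that understates the differences of low genes. A log2 difference of at least 0.322 either way serves as a rule of size, called the size limit, and is not a test. The background is the 15548 loci with a mean FPKM of at least 1 over the groups, which all 10 genes reached. The 3 comparisons share groups and are not independent of each other.

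The libraries held RNA of cortical neurons and of other tissue. Tbr1, a transcription factor of deep-layer neurons, stood at 75.7 FPKM in control, 62.1 in unaffected and 98.3 in affected. Neurod6, a factor of cortical excitatory neurons, stood at 409, 378 and 416 FPKM. Genes of ventral forebrain were also present, with Nkx2-1 at 3.51, 5.67 and 3.69 FPKM and Gad1 at 23.2, 23.9 and 20.9 FPKM. The choroid plexus gene Ttr lay between 970.2 and 1291 FPKM. Lower levels were found for Pecam1 of endothelium (6.99 to 8.39 FPKM), Col1a1 of fibroblasts (12.5 to 14.6), Csf1r of microglia (4.34 to 5.67), Olig2 of the oligodendrocyte lineage (9.03 to 9.79) and Gfap of astrocytes (1.39 to 2.27). The 2 loci that carry the joined name of the alpha-globin genes Hba-a1 and Hba-a2 lay between 162.6 and 303.9 FPKM. In such bulk tissue, fewer cells of a type and less RNA per cell cannot be told apart.

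Upstream sequence is shown for 3 genes whose letters bear on the Notch pathway described above. Windows of 250 bases before to 50 bases after the transcription start were taken from RefSeq (GRCm38.p6, the build named mm10 in the processing notes). Of the 10 genes, 9 (all but Hes1) had at least 1 window and Pax6 had more than 1, for 10 windows in all. Each sequence is written 5′ to 3′ on the plus strand, which is the strand of the gene, and stops before the first transcribed base in RefSeq or GENCODE, whichever lies further upstream. Capitals mark TGGGAA, the core of the RBPJ site (or its reverse complement TTCCCA), upstream of Fabp7 at chr10:57784673-57784880 and of Hes5 at chr4:154960673-154960922. In Eomes, at chr9:118477939-118478188, capitals mark CACNAG, the N box that Hes proteins can bind.

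Fabp7: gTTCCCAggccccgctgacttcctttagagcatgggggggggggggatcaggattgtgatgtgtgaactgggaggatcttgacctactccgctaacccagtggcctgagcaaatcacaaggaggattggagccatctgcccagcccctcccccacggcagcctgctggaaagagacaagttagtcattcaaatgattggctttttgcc
Hes5: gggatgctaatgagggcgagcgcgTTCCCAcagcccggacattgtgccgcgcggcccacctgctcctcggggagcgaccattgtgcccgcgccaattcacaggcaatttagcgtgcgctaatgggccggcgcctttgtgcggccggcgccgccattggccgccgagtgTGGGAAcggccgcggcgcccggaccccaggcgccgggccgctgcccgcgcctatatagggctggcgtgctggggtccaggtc
Eomes: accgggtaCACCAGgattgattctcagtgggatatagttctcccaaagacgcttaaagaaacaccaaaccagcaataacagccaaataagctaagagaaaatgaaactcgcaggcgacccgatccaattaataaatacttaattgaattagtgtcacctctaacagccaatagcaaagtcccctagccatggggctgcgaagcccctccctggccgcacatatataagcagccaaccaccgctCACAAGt

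The core TGGGAA, searched on both strands, began 249 bases before the start of Fabp7 and 226 and 82 bases before the start of Hes5. Positions count from the RefSeq start, and the printed Fabp7 sequence ends short of it because GENCODE starts that gene further upstream. The core was found in 2 of the 10 windows and in 25.6% of the 32851 windows of this length in the table. The N box began 242 and 7 bases before the start of Eomes and 22 bases after that of Neurog2. Among radial glia genes it began 228 bases before the start of Vim, 136 before those of Pax6 (in 1 of its windows) and Fabp7, where it is not in capitals, and 178 before that of Slc1a3. It was present in 6 of 10 windows and in 42.5% of all windows. The E box CANNTG, the letters that proneural factors bind, was present in 5 of 10 windows against 72.3% of all, and TATAAA in 2 of 10 against 13.6%. Matches of different motifs may overlap. These matches describe letters and are not evidence of binding.

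In every group the 10 genes covered a wide range of levels, with Fabp7 at the top and Hes1 at the bottom. FPKM values are scaled to length, so the order of genes is a rough guide. Group differences also followed transcript length, and the Pax6 and Sox2 loci hold other genes, as described below. The control order from the top was Fabp7, Vim, Slc1a3, Sox2, Eomes, Neurog2, Nes, Pax6, Hes5 and Hes1. In the unaffected group Neurog2 (34.3 FPKM) stood just above Eomes (33.8), and in the affected group Sox2 (65.2) stood just above Slc1a3 (62.9). No other neighbours in the order exchanged places. Whether neighbours differ beyond the spread between fetuses could not be assessed.

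**Figure D1:**
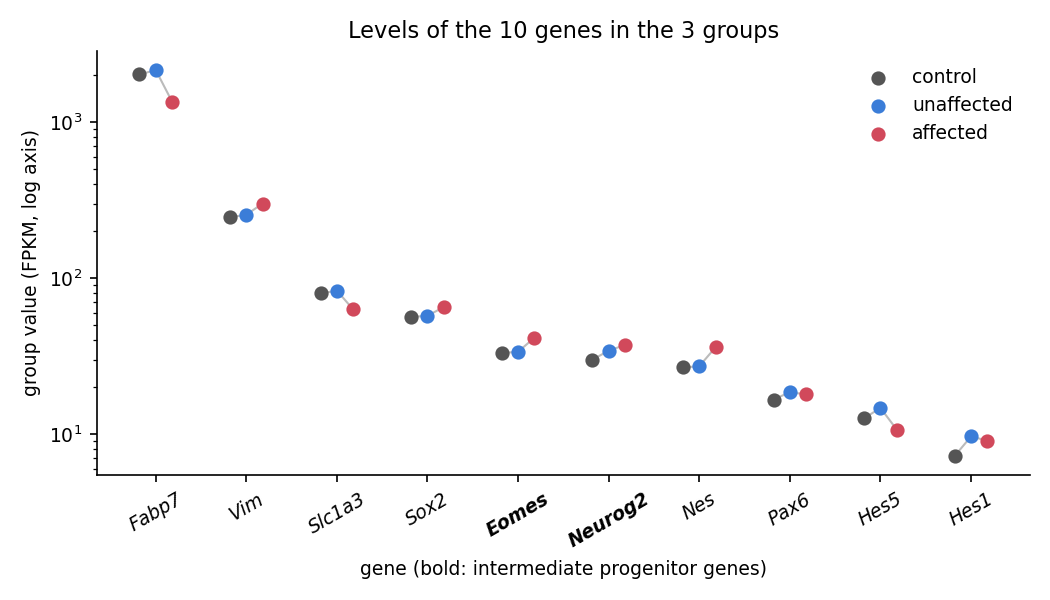
Group values in FPKM (log axis) of the 10 genes, ordered by their control level, with 1 point for each of the control, unaffected and affected groups and no error bars because values of single fetuses were not given. The affected point of Fabp7 lies below its other points (1352 against 2015 FPKM in control), while the points of Nes and Eomes stood highest in that group.

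Fabp7 and Slc1a3 were the radial glia genes that lay lowest in affected fetuses relative to control. Fabp7, which encodes the brain fatty acid binding protein, stood at 2015 FPKM in control, 2151 in unaffected and 1352 in affected. The affected value was 1.49-fold lower than control (log2 -0.58) and 1.59-fold lower than unaffected (log2 -0.67), while the unaffected value lay within 1.07-fold of control. After correction for transcript length, described below, both differences of affected fetuses were smaller (-0.31 and -0.28) and short of the size limit. Of all background loci, 3.18% lay lower than Fabp7 in affected against control. Slc1a3, the glutamate transporter GLAST, stood at 79.7, 83.1 and 62.9 FPKM. It was 1.27-fold lower in affected than control (log2 -0.34) and 1.32-fold lower than in unaffected (log2 -0.40). The control and unaffected values of both genes lay close together, and the affected value stood apart below them.

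Hes5 showed the same order of groups with a smaller difference from control. This Notch effector stood at 12.7 FPKM in control, 14.7 in unaffected and 10.7 in affected. Its log2 difference was -0.24 in affected against control and -0.46 in affected against unaffected, or -0.065 and -0.18 corrected for length. Hes1, the other Notch effector, did not share that order, with 7.27 FPKM in control, 9.68 in unaffected and 9.09 in affected. Both exposed groups lay above control for Hes1, by 0.41 in unaffected and 0.318 in affected on the log2 scale. In affected against unaffected Hes1 lay at -0.090, which turned to 0.13 when corrected for length. Hes1 over Hes5 gave a ratio of 0.574 in control against 0.657 in unaffected and 0.849 in affected.

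The intermediate filament genes stood highest in affected fetuses. Nes, which encodes nestin, stood at 26.8, 27.3 and 36.1 FPKM in control, unaffected and affected. It was 1.35-fold higher in affected than control (log2 0.43) and 1.32-fold higher than in unaffected (log2 0.40). Corrected for the trend with transcript length described below, these were 0.23 and 0.10, short of the size limit. Vim, which encodes vimentin, stood at 245, 255 and 300.4 FPKM, a log2 difference of 0.29 in affected against control and 0.24 against unaffected. Vessels and meninges also express both genes. Of 8 endothelium and pericyte genes, 3 lay past the size limit higher and 0 lower in affected against control (12.1% and 11.3% of all loci), with summed levels of 97.3, 98.7 and 99.2 FPKM. In affected against unaffected 5 of the 8 lay past it higher and 0 lower (20.3% and 18.1% of all loci). Once the length trend was removed, 0 of the 8 passed it relative to control and 1 relative to unaffected, higher (4.47% and 9.49% of all loci). Of 7 genes of meninges and fibroblasts, 0 lay past the size limit higher and 1 lower in affected against control (12.1% and 11.3% of all loci). In affected against unaffected 0 lay past it higher and 2 lower (20.3% and 18.1%). Their sum was 83.0 FPKM in unaffected and 80.7 in affected, both below control. The part of these cells in the values of Nes and Vim was not tested.

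Before correction for length, the transcription factors Pax6 and Sox2 differed less between groups. Pax6, which specifies cortical radial glia, stood at 16.7, 18.6 and 18.0 FPKM, and its largest log2 difference was 0.16 in unaffected against control. Sox2, a factor of neural stem cells, stood at 56.3, 57.4 and 65.2 FPKM, with log2 differences of 0.21 in affected against control and 0.18 against unaffected. Corrected for length the Sox2 differences were larger, 0.27 and 0.31, but short of the size limit. With the longest transcript as length, Sox2 passed it in affected against unaffected (0.34). Both values were taken over loci much larger than the gene. The Pax6 locus spans 368429 bases (chr2:105536080-105904508) against 28465 for the annotated gene, and holds 6 other annotated genes, among them the coding gene Elp4 and the noncoding Pax6os1 and Paupar. The Sox2 locus spans 117615 bases (chr3:34560381-34677995) against 2057 for the gene, and holds 9 other annotated genes, all noncoding, among them part of Sox2ot. Reads of these neighbours may be included in the values.

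The remaining genes lay in loci close to the size of the gene in mm10. They were Hes1 (chr16:30065357-30067796), Hes5 (chr4:154960923-154962371), Vim (chr2:13574311-13582826), Nes (chr3:87971093-87980451), Fabp7 (chr10:57784905-57788451), Slc1a3 (chr15:8634122-8710807), Eomes (chr9:118478189-118486132) and Neurog2 (chr3:127633145-127635631). An antisense gene, Gm33460, overlaps the end of the Eomes locus, and noncoding genes overlap Hes5 (Gm20421) and Slc1a3 (Gm37310). The use of strand in the counting is not stated, so reads of such partners cannot be told apart from those of the gene.

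Both intermediate progenitor genes stood highest in the affected group. Eomes, the T-box factor that marks these cells, stood at 33.1 FPKM in control, 33.8 in unaffected and 41.5 in affected. It was 1.254-fold higher in affected than control (log2 0.33) and 1.23-fold higher than in unaffected (log2 0.30), with the unaffected value close to control. Corrected for length these were 0.26 and 0.20, short of the size limit. Neurog2, a proneural factor expressed as radial glia commit to the neuronal lineage, stood at 30.04, 34.3 and 37.3 FPKM. Its affected value lay above control by 0.31 on the log2 scale, and its unaffected value lay between them, 0.19 above control. For Eomes over Pax6 the ratio was 1.98 in control against 1.81 in unaffected and 2.31 in affected. The ratio of Neurog2 to Pax6 was 1.80, 1.84 and 2.07. Over Sox2 the ratios differed less, with 0.588, 0.588 and 0.636 for Eomes, and that of Neurog2 was highest in unaffected (0.534, 0.597 and 0.572).

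As a group, the radial glia genes did not lie on 1 side of control in affected fetuses. Their log2 differences ran from -0.58 for Fabp7 to 0.43 for Nes, with a median of 0.16 and 5 of 8 above 0, while the mean of Eomes and Neurog2 was 0.32. The median over all background loci was 0.020. The intermediate progenitor mean stood 0.16 above the radial glia median. That median depended on which genes were counted: without Vim and Nes it was -0.065, and without Pax6 and Sox2 it was 0.026. Of the 10 genes, 2 lay past the size limit higher (Nes and Eomes) and 2 lower (Fabp7 and Slc1a3), where 12.1% of all loci lay past it higher, 11.3% lower and 23.4% either way. At the limit of 0.322, Eomes lay just past it with 0.326 and Hes1 (0.318) and Neurog2 (0.312) just short of it, and centring on the median of all loci put Eomes short of it as well (0.307).

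In unaffected fetuses all 10 genes lay above control, mostly by little, where 51.6% of background loci lay above 0. After removal of the trend with transcript length, 7 of 10 lay above 0, and Sox2 (-0.025), Fabp7 (-0.019) and Vim (-0.0058) lay just below. The 8 radial glia genes ran from 0.027 to 0.41 on the log2 scale with a median of 0.077, and the mean of Eomes and Neurog2 was 0.11. Hes1 was the 1 gene past the size limit, against 5.45% of loci higher, 6.8% lower and 12.3% either way. In affected against unaffected the radial glia median was -0.070 with 3 of 8 genes above 0, and the mean of Eomes and Neurog2 was 0.21. Here 1 gene lay past the size limit higher (Nes) and 3 lower (Fabp7, Hes5 and Slc1a3), against 20.3% of loci higher, 18.1% lower and 38.4% either way. The 4 of 10 genes past the size limit are thus close to the share of all loci in this comparison.

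**Figure D2:**
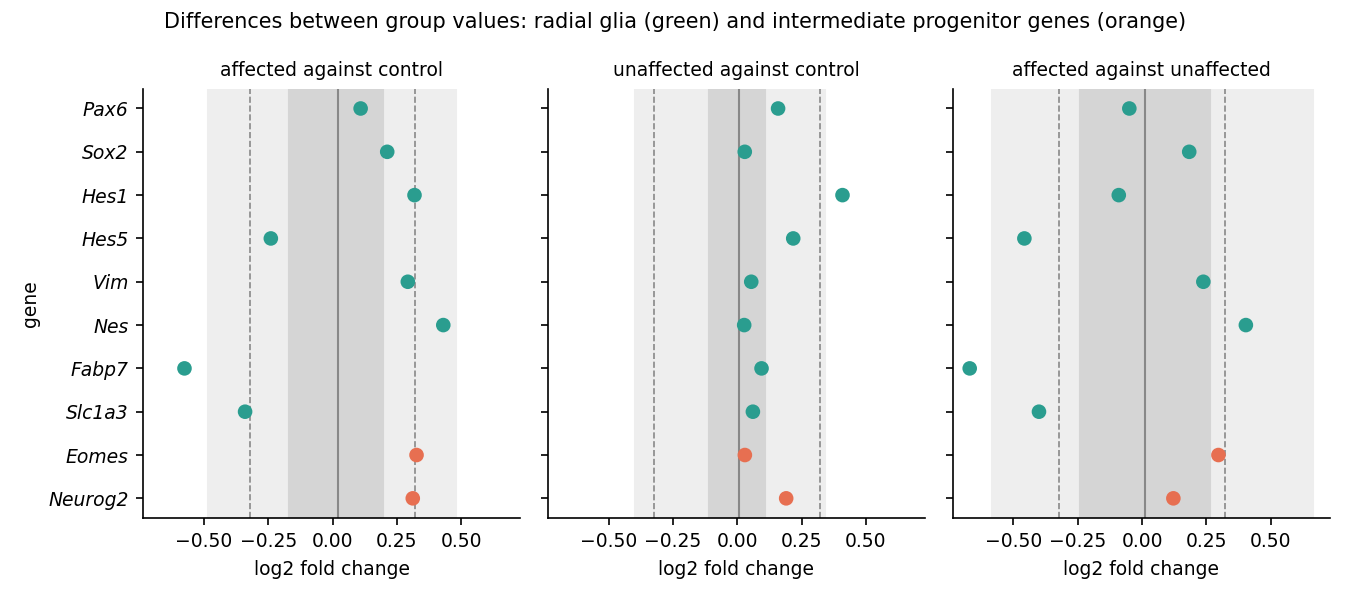
Log2 differences of the 10 genes in the 3 comparisons (green, radial glia genes and orange, intermediate progenitor genes). The dark band holds the background loci between the quartiles, the light band the range from the 5th to the 95th percentile, the solid line their median and dashed lines the size limit. Fabp7 lies below the light band in both comparisons of affected fetuses, and Hes1 above it in unaffected against control.

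Differences across all loci followed transcript length, and this trend touches several of the genes. Over the 12567 background loci with an annotated length, Spearman's rho of length with the log2 difference was 0.55 in affected against control, -0.49 in unaffected against control and 0.62 in affected against unaffected. These are descriptions across genes, which share the same group values and are not independent. In affected against control, loci under 1000 nucleotides had a median of -0.27 and loci of 4000 or more a median of 0.18. Fabp7 has the shortest median transcript of the 10 genes (842 nucleotides) and Nes the longest (6042). Hes5 (1273) and Hes1 (1468) are also short, and Slc1a3 (2445.5), Neurog2 (2227) and Eomes (3214.5) lie nearer the middle.

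Against the loci nearest in length (250 on either side), the differences of single genes shifted. Slc1a3 lay at -0.33 from their median in affected against control, and 3.59% of those loci lay lower. Fabp7 lay at -0.31, with 4.59% lower, and Hes5 at -0.065, with 34.7% lower. Relative to the running median the values were 0.45 for Hes1, 0.35 for Vim, 0.34 for Neurog2, 0.27 for Sox2, 0.26 for Eomes, 0.23 for Nes and 0.081 for Pax6. By this measure Hes1, Vim and Neurog2 were past the size limit higher and Slc1a3 lower, where 4.47% of the 12567 loci lay past it higher, 5.78% lower and 10.3% either way. The count of 4 genes was unchanged but 3 of them were other genes. In affected against unaffected only Vim (0.37) and Slc1a3 (-0.35) of the 10 genes passed the size limit once the trend was removed, against 18.4% of loci either way.

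**Figure D3:**
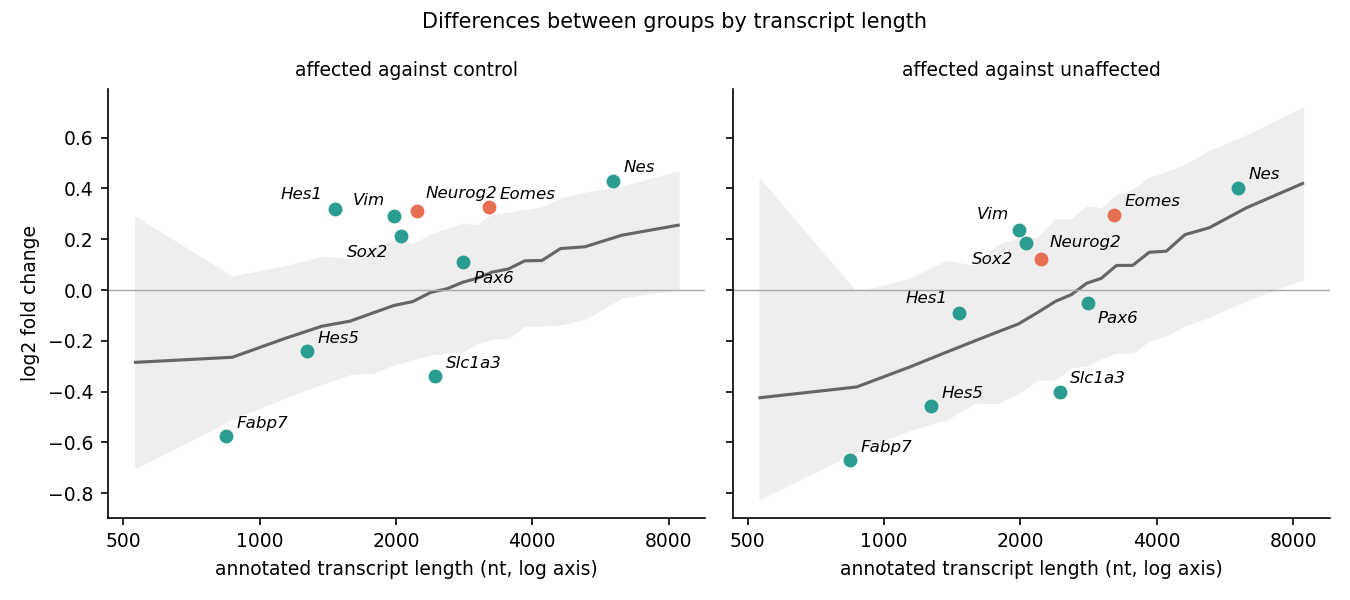
Log2 difference against annotated transcript length (nucleotides, log axis) for the 10 genes (green, radial glia and orange, intermediate progenitor), with the median (line) and the range from the 10th to the 90th percentile (band) of background loci in 20 bins of length. The line climbs with length in both panels, Slc1a3 and Fabp7 lie at or below the lower edge of the band, and Hes1 lies far above it in affected against control only.

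Other radial glia genes also lay on both sides of control in affected fetuses, with 18 of 22 above it where 52.9% of background loci were. Of 22 further genes of radial glia, 11 lay past the size limit higher and 2 lower in affected against control (12.1% and 11.3% of all loci), with a median of 0.32 against 0.020 over all background loci. Gli3, a transcription factor of the hedgehog pathway, stood at 3.01, 2.70 and 4.76 FPKM in control, unaffected and affected. Tnc, which encodes the matrix protein tenascin-C, stood at 21.8, 14.7 and 29.9 FPKM, the lowest value being that of the unaffected group. Ptprz1, a receptor phosphatase, showed the same order with 41.9, 33.5 and 51.8 FPKM. Hopx, a homeodomain protein of radial glia, was lower in affected fetuses with 20.3, 21.6 and 13.7 FPKM. Dbi, which encodes an acyl-CoA binding protein, stood at 1167, 1389 and 884 FPKM. With the length trend removed, 5 of the 22 genes were past the size limit higher and 1 lower (4.47% and 5.78% of all loci), and the median was 0.19. Gli3 and Hopx were among them, while Tnc (0.21), Dbi (-0.10) and Ptprz1 (0.065) were not.

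Of 14 other genes of intermediate progenitors, 4 lay past the size limit higher and 0 lower in affected against control (12.1% and 11.3% of all loci), and their median was 0.21. They were Neurog1, a relative of Neurog2 (0.952, 1.16 and 1.66 FPKM), the rhomboid family gene Rhbdl3 (4.53, 5.62 and 6.34), the zinc finger factor Insm1 (41.5, 40.7 and 54.1) and the Notch ligand Dll1 (6.03, 6.46 and 7.95). Gadd45g, a growth arrest gene, stood at 19.8, 25.6 and 19.5 FPKM and was past the size limit lower in affected against unaffected, a difference of -0.39 that was -0.067 with the length trend removed. The list's median in affected against control with the length trend removed was also 0.21, and 4 of 14 passed the size limit higher (4.47% of all loci), with Mfap4 (0.43) in place of Dll1 (0.30). In affected against unaffected 2 of 14 lay past the size limit higher and 1 lower, shares below the 20.3% and 18.1% of all loci.

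Of the Notch pathway, ligands, receptors, processing genes and targets were counted in turn. Among 5 ligands, Dll1 and Dll3 were past the size limit higher in affected against control and 0 were lower (12.1% and 11.3% of all loci), with a median of 0.26. Dll3 stood at 10.2, 11.8 and 12.8 FPKM, and Jag1 (2.70, 2.47 and 3.25 FPKM) passed the size limit in affected against unaffected. With the length trend removed, 0 of 5 ligands passed it higher in affected against control (4.47% of all loci), with a median of 0.076. Of 4 receptors, 3 lay past the size limit higher in both comparisons of affected fetuses, against 12.1% of all loci relative to control and 20.3% relative to unaffected. Notch1 stood at 5.43, 4.87 and 8.01 FPKM, Notch2 at 4.23, 3.74 and 6.10 FPKM, and Notch3 at 2.37, 2.12 and 3.35 FPKM. The receptors have long transcripts. With the length trend removed, 0 of 4 passed the size limit higher in either comparison of affected fetuses (4.47% and 9.49% of all loci). All 4 lay above 0 relative to control and 3 relative to unaffected, each with a median of 0.25.

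Of 17 genes that modify Notch, cut it or act with it in the nucleus, 1 lay past the size limit higher and 0 lower in affected against control, below the 12.1% and 11.3% of all loci, with a median of 0.16. That gene was the coactivator Maml1 (4.53, 4.57 and 6.36 FPKM). In affected against unaffected its relative Maml2 (2.06, 1.61 and 2.50 FPKM) also passed it higher, and Psenen, a subunit of gamma-secretase, passed it lower (106.5, 122 and 91.5 FPKM). After length correction the difference of Psenen was 0.0051 and that of Maml1 in affected against control 0.31, so neither passed it. Maml2 (0.66) and the glycosyltransferase gene Rfng (0.33) passed it higher in affected against unaffected by the same measure, as did 9.49% of all loci. Of 5 genes listed as Notch targets besides Hes1 and Hes5, 0 were past the size limit higher and 1 lower in affected against control (12.1% and 11.3% of all loci). Their median was -0.081, or 0.076 with the length trend removed. Both medians are the values of Hes6, which is also in the intermediate progenitor list. The 1 lower gene was Hey2, a repressor of the Hes family, with 2.86 FPKM in control, 3.08 in unaffected and 1.68 in affected, a log2 difference of -0.73 that was -0.71 with the length trend removed. By that measure Heyl, a related repressor, also passed the limit lower (-0.39), for 2 of 5 (5.78% of all loci).

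Of 6 proneural factors, Neurog2 among them, 3 lay past the size limit higher and 0 lower in affected against control (12.1% and 11.3% of all loci), with a median of 0.35. Neurog1 and Insm1, given above, were among them. With the length trend removed the median was 0.34 and 4 of 6 passed the size limit higher (4.47% of all loci). All 6 lay above 0 in affected against control, where 52.9% of background loci did.

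**Figure D4:**
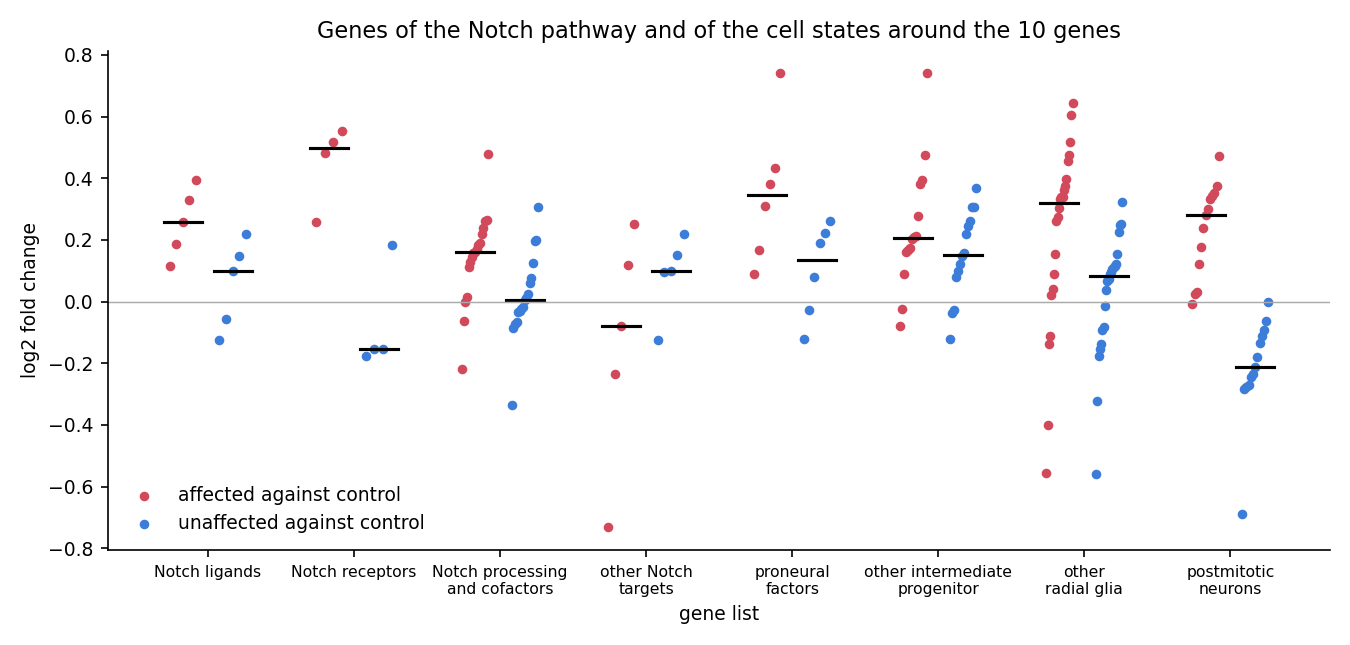
Log2 differences from control of each gene of the Notch pathway, proneural, progenitor and neuron lists, in affected (red) and unaffected (blue) fetuses, with a bar at the median of each list. The red medians lie above the blue ones in every list shown except the other Notch targets, and the blue points of the neuron list lie at or below 0. Values are not corrected for length, and with the length trend removed the red median of the ligands (0.076) was also below the blue (0.12).

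Genes of cycling cells and of neurons were counted in the same way. Of 12 cell cycle genes, 1 lay past the size limit higher in affected against control and 0 lower (12.1% and 11.3% of all loci), with a median of 0.15. It was Mki67, a gene of cycling cells with a long transcript (6.49, 6.08 and 10.7 FPKM). In affected against unaffected Cdk1 (17.5, 21.8 and 17.0 FPKM) passed the size limit lower. With the length trend removed, Mki67 was past it higher against control (0.46, where 4.47% of all loci passed) and against unaffected (0.38, 9.49%). Cdk1 stayed past it lower against unaffected (-0.39, 8.93% of all loci). In unaffected fetuses 11 of the 12 cell cycle genes lay above control (51.6% of all loci), with a median of 0.22. Of 13 genes of postmitotic cortical neurons, 5 lay past the size limit higher (12.1% of all loci) and 0 lower in affected against control, with a median of 0.28. By length-corrected values 3 of 13 passed it (4.47% of all loci), with a median of 0.16. In unaffected against control 0 of 13 lay above 0 (51.6% of all loci), with a median of -0.21, and in affected against unaffected 9 of 13 passed the size limit higher (20.3% of all loci). Bcl11b, a factor of deep-layer neurons, stood at 32.7, 28.2 and 45.5 FPKM. The part of neuron content in the values of Eomes and Neurog2 was not tested.

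Cells outside the cortical lineage share some of these genes. Of 11 genes of ventral progenitors and interneurons, 3 lay past the size limit higher in affected against control (12.1% of all loci) and 3 in unaffected against control (5.45%), with medians of 0.069 and 0.29 that were 0.16 and 0.20 after length correction. Nkx2-1 stood highest in the unaffected group, as given above. Of 6 astrocyte genes, 5 had a mean of at least 1 FPKM. In affected against control 2 of these lay past the size limit lower and 0 higher (11.3% and 12.1% of all loci). The 2 were Gfap (2.27, 1.82 and 1.39 FPKM) and Gjb6, a connexin (4.96, 4.39 and 3.19 FPKM), while Aqp4 (0.094) and Slc1a2 (0.17) lay above control. In affected against unaffected 2 lay past it lower and 1, Aqp4 (0.41), higher (18.1% and 20.3% of all loci). The summed level of the 6 was 33.2, 30.8 and 30.2 FPKM. Fabp7, Slc1a3 and Hopx are also expressed by young astrocytes, and the part of such cells in their values was not tested. Of 7 genes of the oligodendrocyte lineage, Cspg4 lay past the size limit higher in affected against control (1.07, 0.841 and 1.49 FPKM) and 2 lay past it lower, and of 6 microglia genes 0 lay past it higher and 2 lower, against 12.1% of all loci higher and 11.3% lower. After length correction neither Cspg4 nor any of the 6 microglia genes passed it.

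A few loci had nearly the same pair of differences from control as the genes described, over 6590 loci of a single gene with a mean of at least 10 FPKM. Msn, Nxph4 and Epha3 were nearest to Eomes, with distances of 0.013, 0.014 and 0.016 on the log2 scale, and 33 loci lay within 0.05. Kif22, Fzd2 and Dll3 were nearest to Neurog2, with distances of 0.017, 0.017 and 0.034, and 8 loci lay within 0.05. The median profile of the radial glia genes had 126 loci within that distance, with Tmem209, Zfp1 and Nr1h2 nearest. Each likeness rests on 2 differences from the same control value.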

How the data were processed

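RNA-seq was carried out on 9 fetal mouse brain samples, grouped by the sample labels as control fetuses and as unaffected or affected fetuses exposed to EtOH. Libraries were prepared with the Illumina TruSeq RNA kit and sequenced as 50-base paired reads. The methods name STAR as well as Bowtie with TopHat for alignment, and the submitters' processing notes name Bowtie2 2.2.4.0, Cufflinks, Cuffdiff and mm10. The authors deposited FPKM values, 1 per group and locus over 3 fetuses, scaled to exon length and mapped fragments. Because each value pools 3 libraries, single reads were not recovered, depth per library is unknown and no counting interval is given. The authors' own fold changes, test statistics, p-values and q-values stand in the same table and were not used.

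Fold changes were computed on log2(FPKM + 0.1) over loci with a mean of at least 1 FPKM, with Python 3.11.15, pandas 2.3.3, numpy 2.4.6 and scipy 1.17.1. Deposited locus starts count from 0 and are given counted from 1. Transcript lengths are the median over a gene's transcripts in GENCODE (release M21, GRCm38), found for 80.8% of these loci, and the length trend was a running median over the nearest 250 loci on either side. The steps were tested on simulated data. The genes and lists were chosen with earlier results of these data known. All 10 genes are named, with up to 6 genes a list past the size limit in either comparison of affected fetuses, markers of the tissue, and the 3 loci most alike. Where a list's larger members were already given or add nothing about these 10 genes, they were counted and not named, and a few genes are not reported here. Alternatives were other pseudocounts, scalings, folds, filters, length corrections and gene choices.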

Additional observations from a re-analysis of the deposited data

How the results depend on the processing

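No paired analysis was possible because the deposited columns hold 1 value per group and carry no replicate number, and for the same reason no fetus could be left out. Of 117 values recomputed under other settings for the group results, 100 stayed within 0.1 on the log2 scale (counts within 1.5 times) and 17 moved. A change of sign was to be called a reversal only where the main log2 value reached the size limit. No main value did, so that call could not be made, and some smaller values did change sign, as given below. The cause was not tested unless the setting itself gives it. For the radial glia median in affected against control, the mean in its place gave 0.026, leaving out Vim and Nes gave -0.065, and leaving out Pax6 and Sox2 (chosen after seeing the data) gave 0.026. The intermediate progenitor mean then stood above that median by 0.38 and 0.29. In affected against unaffected either omission gave a median of -0.25 and a difference of 0.45. A fold of 1.5 left 0 genes past it in affected against control, 0 in unaffected against control and 1 in affected against unaffected, and a fold of 1.1 gave 9, 4 and 7. Of all loci, 6.43%, 5.54% and 11.8% lay past a fold of 1.5 and 61.7%, 39.8% and 71.6% past a fold of 1.1. With the length trend removed, 2 genes passed in affected against unaffected, and with the longest transcript as length (also chosen after seeing the data) 0 passed in unaffected against control. With the trend removed, the 4 genes past the fold in affected against control were 3 higher and 1 lower, in place of 2 and 2, and the radial glia median in affected against unaffected became 0.013. With the longest transcript as length, the small difference between both progenitor groups in unaffected against control became -0.0068. A pseudocount of 1 and centring on the median of all loci each left 3 genes past the limit in affected against control, with 1 higher in place of 2 (Eomes lost its call), and no pseudocount gave 5. Upper quartile scaling changed no count.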

Other observations

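Genes of peripheral nerve glia, a list of 12 chosen after their values were seen, hold some of the lower values of affected fetuses, which that choice fixes. Of the 12, 6 had a mean of at least 1 FPKM, and 3 of these lay past the size limit lower in affected against control (11.3% of all loci). Frzb, a secreted Wnt antagonist, stood at 3.50 FPKM in control, 3.38 in unaffected and 1.47 in affected. Foxd3, a factor of neural crest, stood at 0.838, 0.661 and 0.123 FPKM, and S100b, a calcium-binding protein of glia, at 0.940, 0.893 and 0.350 FPKM. Both had a mean below 1 FPKM and are not among the 3 counted. The differences have no replicate check.

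Blood genes differed between the exposed groups. Both alpha-globin loci stood highest in unaffected fetuses (263.4 and 303.9 FPKM against 199.8 and 236.1 in control) and lowest in affected (162.6 and 189 FPKM). Their transcripts are short, and with the length trend removed they lay at -0.022 and -0.046 in affected against control and at -0.28 and -0.27 in affected against unaffected, short of the size limit. Alas2, the heme synthesis gene of red blood cells (18.9, 25.2 and 17.8 FPKM), stayed past the limit, at -0.37 in affected against unaffected and 0.35 in unaffected against control.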
